A study of Mus musculus with 6 samples.

Results

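The mitochondrially encoded complex I genes are the 7 genes mt-Nd1, mt-Nd2, mt-Nd3, mt-Nd4, mt-Nd4l, mt-Nd5 and mt-Nd6, taken by their symbols from the deposited table of 12560 protein-coding genes. All 7 had a row, and they are 7 of the 13 protein-coding genes of the mouse mitochondrial genome. They were measured by RNA sequencing in 3 libraries with the genotype label Eldr cKO, from Eldr cKO mice, and 3 libraries labelled control, all with chondrocytes (cartilage cells) as the stated source. Eldr is a long noncoding RNA that the series title links to chondrocyte senescence in ageing and injury. Any Cre driver, strain, sex, age, joint and the number of animals behind each genotype are not given in the sources used here. P-values below set the difference between genotypes against the spread among these 6 libraries, which may be technical. In the main test that spread came from a trend over all genes, not from each gene's own values. No value of Eldr was analysed here, so the labels stand without a check on the deleted gene.

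Complex I (NADH:ubiquinone oxidoreductase) is the entry point of electrons from NADH into the respiratory chain and pumps protons across the inner mitochondrial membrane. Its hydrophilic arm, which holds the flavin and iron-sulphur clusters, is built from nuclear-encoded subunits, while the 7 mitochondrially encoded proteins form the core of its membrane arm. Both strands of mitochondrial DNA are transcribed into long precursors that are cut at the tRNAs between the genes. Heart muscle, which is rich in mitochondria, is known for high levels of these transcripts.

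Sequencing depth was low, and the libraries differed in what they held. The values are FPKM, fragments scaled to transcript length and to the mapped fragments of a library, and depth was estimated from their smallest steps. It was 52180 to 191543 fragments in the Eldr cKO libraries and 79492 to 464360 in the controls. The 13 mitochondrial genes held 33.8% to 43.6% of all FPKM in Eldr cKO and 41.1% to 70.0% in the controls. Predicted genes in repeat-rich sequence, 12 in number, made up 3.84%, 48.8% and 46.2% in Eldr cKO 1, 2 and 3 and 3.07%, 12.9% and 13.4% in control 1, 2 and 3. Of 14 core cartilage markers 6 had a row, and they summed to 3.55 to 17.2 FPKM in Eldr cKO and 2.10 to 14.9 FPKM in the controls. Type II collagen and aggrecan (Col2a1, Acan) were not among them and were not analysed here. Of 15 heart muscle markers all 15 had a row, and they summed to 1608 to 7434 FPKM in Eldr cKO and 895 to 8049 FPKM in the controls. The 6 cartilage markers with a row thus summed to little and the heart markers to much in every library, against the stated cell type. Above 0 in all 6 libraries were 10 of the 15 heart markers and 1 of the 6 cartilage markers. The libraries are named here by genotype only.

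In GENCODE M21 on GRCm38, each of the 7 genes is a single coding exon on chromosome M. On the plus strand lie mt-Nd1 (2751 to 3707), mt-Nd2 (3914 to 4951), mt-Nd3 (9459 to 9806), mt-Nd4l (9877 to 10173), mt-Nd4 (10167 to 11544) and mt-Nd5 (11742 to 13565). On the minus strand lies mt-Nd6 (13552 to 14070), the only protein-coding gene among the 13 on that strand. The coding lengths run from 297 bases for mt-Nd4l to 1824 bases for mt-Nd5. Start codons other than ATG open mt-Nd1 (GTG), mt-Nd2 (ATA), mt-Nd3 (ATT) and mt-Nd5 (ATC). The length of mt-Nd4, 1378 bases, leaves 1 base over whole codons, and in mitochondria such incomplete stop codons are completed by the poly(A) tail. The base composition of mt-Nd6 also stood apart, with 28.1% G and 6.0% C on its coding strand, against at most 11.6% G and at least 22.1% C in the other 6 members.

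Both gene pairs with overlapping ends are shown because reads there belong to 2 rows of the table. The first pair shares 7 bases on the same strand (capitals) and is known as a bicistronic messenger RNA.
mt-Nd4l, last 60 bases, plus strand, chrM:10114-10173: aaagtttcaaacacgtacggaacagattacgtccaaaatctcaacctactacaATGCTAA
mt-Nd4, first 60 bases, plus strand, chrM:10167-10226: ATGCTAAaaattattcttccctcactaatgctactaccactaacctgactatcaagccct
The second pair meets tail to tail, so that the 14 shared bases (capitals) read as reverse complements.
mt-Nd5, last 60 bases, plus strand, chrM:13506-13565: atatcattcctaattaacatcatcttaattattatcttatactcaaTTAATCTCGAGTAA
mt-Nd6, last 60 bases, minus strand, chrM:13552-13611: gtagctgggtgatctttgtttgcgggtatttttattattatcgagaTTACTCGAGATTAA

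The sequences are those of the GENCODE M21 transcripts. The labels name a strand-preserving kit, but no source used here says whether counting used the strand. Fragments of mt-Nd6 and fragments of the opposite strand, which carries mt-Nd5, could therefore not be told apart.

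Nuclear copies of some of these genes are nearly identical. A chromosome 1 stretch holds the pseudogenes Gm28438 (24612775 to 24613119), Gm10222 (24612407 to 24612700) and Gm28439 (24611535 to 24612410). Gm28438 matched 344 of 345 aligned bases of mt-Nd3, Gm10222 matched 294 of 294 of mt-Nd4l, and Gm28439 matched all of the first 876 bases of mt-Nd4, 63.6% of that gene. Copies of mt-Nd2, mt-Nd5 and mt-Nd6 elsewhere were 92.4% to 96.7% identical, and no copy of mt-Nd1 was found among annotated transcripts. No source used here says how fragments matching both places were assigned, so values of mt-Nd3, mt-Nd4l and mt-Nd4 are uncertain in that respect. None of these pseudogenes was analysed here.

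All 7 members had a lower mean FPKM in Eldr cKO than in control, and the groups overlapped for each of them. They are described in an order chosen after the values were seen: first mt-Nd1, mt-Nd2, mt-Nd4l and mt-Nd3, whose values ran closely parallel over the libraries, then mt-Nd5, mt-Nd6 and mt-Nd4, whose values ran less so. In bulk libraries, fewer mitochondria-rich cells and less of a transcript per cell cannot be told apart.

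**Figure D1:**
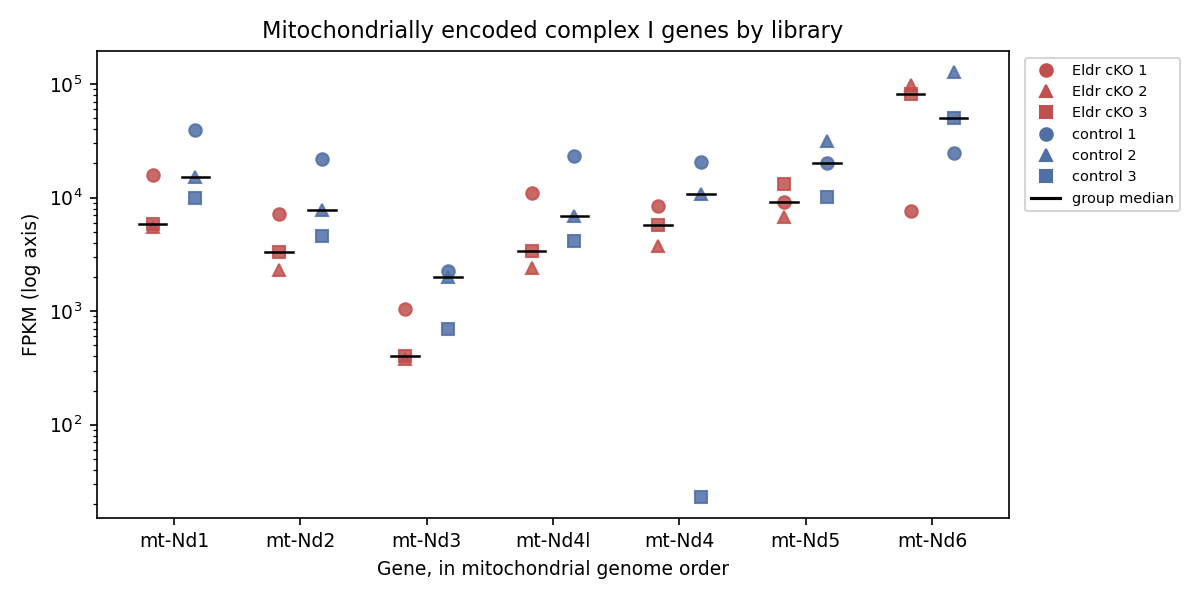
FPKM of each mitochondrially encoded complex I gene (log axis) in the 3 Eldr cKO and 3 control libraries, each point 1 library and each bar a group median, genes in genome order. The groups overlap for every gene, mt-Nd4 in control 3 lies at 23.3 FPKM, and mt-Nd6 is low in library 1 of both genotypes.

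ND1 sits where the membrane arm meets the quinone-binding site. Its transcript mt-Nd1 was listed at 15667, 5476 and 5798 FPKM in Eldr cKO 1, 2 and 3, against 39723, 15279 and 9864 FPKM in control 1, 2 and 3. Library 1 was the highest of its genotype, and Eldr cKO 1 lay above control 2 and 3. The means were 8980 ± 5793 FPKM in Eldr cKO and 21622 ± 15908 FPKM in control (SD, n = 3 each).

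ND2, like ND4 and ND5, is one of the antiporter-like subunits that carry protons across the membrane. Its transcript mt-Nd2 was listed at 7152, 2315 and 3336 FPKM in Eldr cKO 1, 2 and 3, against 21913, 7820 and 4573 FPKM in control 1, 2 and 3. Within each genotype the libraries stood in the same order as for mt-Nd1, and Eldr cKO 1 lay above control 3. The ratio of mt-Nd2 to mt-Nd1 stayed within 0.423 to 0.575 in Eldr cKO and 0.464 to 0.552 in control. Between these genes the libraries thus differed far less than in either level, which spanned 7.25 times for mt-Nd1 and 9.47 times for mt-Nd2 over the 6 libraries.

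ND4L is a small subunit packed between its larger neighbours in the membrane arm. Its transcript mt-Nd4l was listed at 10886, 2403 and 3380 FPKM in Eldr cKO 1, 2 and 3, against 23144, 6855 and 4188 FPKM in control 1, 2 and 3. Its ratio to mt-Nd1 ran from 0.439 to 0.695 in Eldr cKO and from 0.425 to 0.583 in control. The libraries of each genotype again stood in the order of mt-Nd1, and Eldr cKO 1 lay above control 2 and 3.

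ND3 carries a flexible loop near the quinone site that is exposed in the deactive form of the enzyme. Its transcript mt-Nd3 was listed at 1053, 382 and 405 FPKM in Eldr cKO 1, 2 and 3, against 2276, 1980 and 693 FPKM in control 1, 2 and 3. Per length it was the lowest of the 13 mitochondrial genes in every library except control 3, where mt-Nd4 was lower. At the estimated depths these values stood on about 70.2, 6.94 and 7.90 fragments in Eldr cKO and 368, 54.8 and 31.4 in control. The groups overlapped through control 3, and the counting error in Eldr cKO 2 and 3 is large. At 348 bases the gene is short, though mt-Nd4l, at 297 bases, was listed higher in all 6 libraries. No source used here says how fragment size entered the authors' FPKM, and the part of gene length was not tested.

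Over the 6 libraries, Pearson's r of log2(FPKM + 1) among mt-Nd1, mt-Nd2, mt-Nd3 and mt-Nd4l ran from 0.87 to 0.99. With the 6 other mitochondrial coding genes the same 4 had r from 0.85 to 0.99. For mt-Nd5, described next, r with the same 4 ran from 0.51 to 0.78, and for mt-Nd4 r with the other 12 mitochondrial genes ran from -0.12 to 0.66. These values describe 6 libraries whose mitochondrial genes share depth and scaling, and they carry no test.

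ND5 is the largest of the antiporter-like subunits and lies at the far end of the membrane arm. Its transcript mt-Nd5 was listed at 9219, 6760 and 13041 FPKM in Eldr cKO 1, 2 and 3, against 20344, 31291 and 10077 FPKM in control 1, 2 and 3. Unlike mt-Nd1, it was highest in library 3 of Eldr cKO and library 2 of control. Its ratio to mt-Nd1 was 0.588, 1.23 and 2.25 in Eldr cKO 1, 2 and 3 and 0.512, 2.05 and 1.02 in control 1, 2 and 3. In library 1 of both genotypes mt-Nd5 thus lay below mt-Nd1, and in the other 4 libraries above it.

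ND6 is a membrane subunit whose helix takes part in coupling quinone reduction to proton pumping. Its messenger RNA, the only one from the opposite strand, is described in human cells as carrying little or no poly(A) tail. The transcript mt-Nd6 was listed at 7571, 97372 and 81293 FPKM in Eldr cKO 1, 2 and 3, against 24925, 127568 and 49733 FPKM in control 1, 2 and 3. Library 1 was the lowest of each genotype, the reverse of mt-Nd1. The ratio of mt-Nd6 to mt-Nd5, its tail-to-tail neighbour, was 0.821, 14.4 and 6.23 in Eldr cKO 1, 2 and 3 and 1.22, 4.08 and 4.94 in control 1, 2 and 3. Over the 6 libraries r of mt-Nd6 with the other 12 mitochondrial genes ran from -0.71 to 0.25. Measured against the summed FPKM of genes outside the mitochondrial genome and the repeat-rich group, mt-Nd6 was 0.0512, 1.40 and 0.987 times that sum in Eldr cKO 1, 2 and 3 and 0.199, 2.0 and 0.398 times in control 1, 2 and 3. The labels allow either poly(A) selection or removal of ribosomal RNA and do not say which was used for which library. Library 1 was also the deepest of each genotype (191543 fragments in Eldr cKO 1 and 464360 in control 1) and had the lowest repeat-rich share (3.84% and 3.07%). The part of depth, repeat-rich sequence and RNA selection in the mt-Nd6 values was not tested.

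ND4 is another antiporter-like subunit. Its transcript mt-Nd4 was listed at 8485, 3758 and 5739 FPKM in Eldr cKO 1, 2 and 3, against 20601, 10812 and 23.3 FPKM in control 1, 2 and 3. A single library, control 3, set the spread of the controls, whose highest value was 884 times the lowest, while in Eldr cKO the highest was 2.26 times the lowest. The neighbour mt-Nd4l on the same messenger RNA was listed at 4188 FPKM in control 3, so the ratio of mt-Nd4 to mt-Nd4l was 0.00556 there. It was 0.780, 1.56 and 1.70 in Eldr cKO 1, 2 and 3 and 0.890 and 1.58 in control 1 and 2. Downstream, mt-Nd5 was at 10077 FPKM in control 3. The value of mt-Nd4 in control 3 corresponded to about 4.19 fragments, against 1231 for mt-Nd1 in that library. Outside control 3, the 2 other controls lay above all 3 Eldr cKO libraries. The part of the identical chromosome 1 copy in the control 3 value was not tested.

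**Figure D2:**
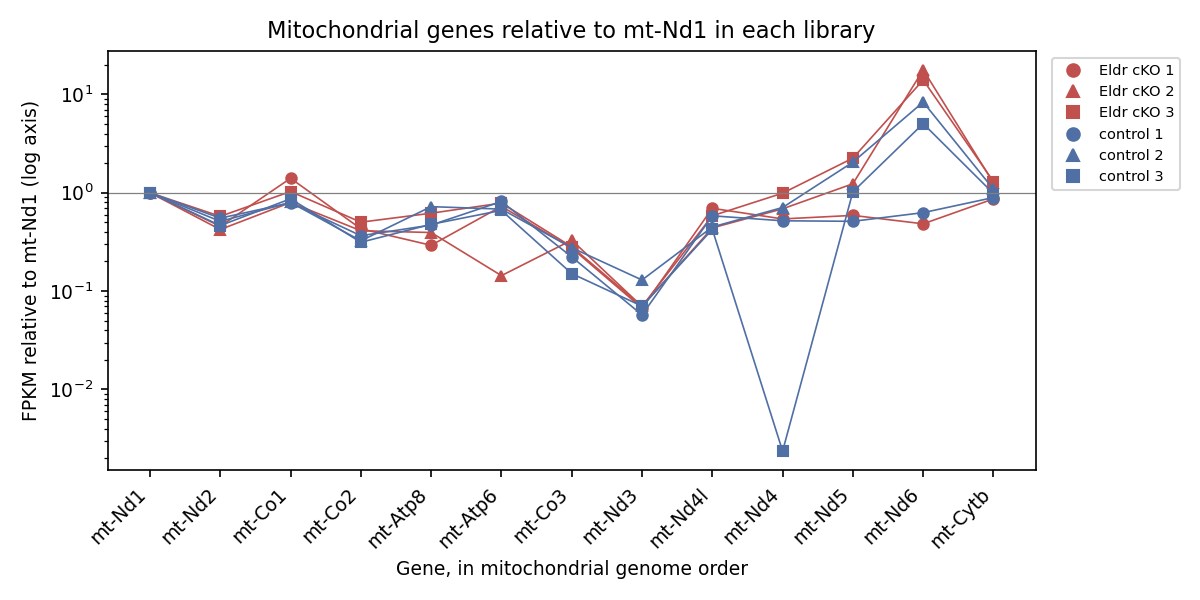
FPKM of the 13 mitochondrial coding genes divided by that of mt-Nd1 in the same library (log axis), 1 line for each of 3 Eldr cKO and 3 control libraries, genes in genome order. The lines lie close together for mt-Nd2 and mt-Nd4l, part at mt-Nd5 and mt-Nd6, where library 1 of both genotypes stays below 1, and control 3 drops to 0.00236 at mt-Nd4.

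Per length and within a library, the order of the 7 transcripts was only partly shared. In all 6 libraries mt-Nd1 exceeded mt-Nd2, mt-Nd4l, mt-Nd4 and mt-Nd3, and mt-Nd2, mt-Nd4l, mt-Nd5 and mt-Nd6 exceeded mt-Nd3. The first place went to mt-Nd6 in 4 libraries and to mt-Nd1 in the other 2, which were library 1 of each genotype. By mean log2(FPKM + 1), the order in Eldr cKO was mt-Nd6 (15.26), mt-Nd5 (13.19), mt-Nd1 (12.95), mt-Nd4 (12.47), mt-Nd4l (12.12), mt-Nd2 (11.89) and mt-Nd3 (9.10). In the controls it was mt-Nd6 (15.72), mt-Nd5 (14.18), mt-Nd1 (14.15), mt-Nd2 (13.17), mt-Nd4l (13.09), mt-Nd4 (10.78) and mt-Nd3 (10.51). The neighbours mt-Nd5 and mt-Nd1 changed places between libraries, with mt-Nd5 higher in 4 of 6, as did mt-Nd4 and mt-Nd4l (mt-Nd4 higher in 3 of 6) and mt-Nd4l and mt-Nd2 (mt-Nd4l higher in 4 of 6). The distance of mt-Nd3 to the next gene in Eldr cKO exceeded the SD of both (0.82 for mt-Nd3 and 0.83 for mt-Nd2). In the controls the next gene was mt-Nd4, whose mean took in control 3 at 23.3 FPKM. There the distance was below the SD of both (0.94 for mt-Nd3 and 5.37 for mt-Nd4).

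As a share of the summed mitochondrial FPKM, the complex I genes took 49.0%, 86.7% and 81.2% in Eldr cKO 1, 2 and 3, against 52.0%, 77.2% and 69.9% in control 1, 2 and 3. The means were 72.3% ± 20.4 in Eldr cKO and 66.4% ± 13.0 in control (SD, n = 3 each), and the groups overlapped. The share followed mt-Nd6, which alone took 6.18%, 71.2% and 58.4% in Eldr cKO 1, 2 and 3 and 8.47%, 48.9% and 43.9% in control 1, 2 and 3. With mt-Nd6 left out of both sums, a step chosen after the data had been seen, the share was 45.6%, 53.6% and 54.8% in Eldr cKO and 47.5%, 55.5% and 46.4% in control. The remaining 6 complex I genes thus held a similar part of the mitochondrial signal in every library, between 45.6% and 55.5%. Sums over the members are given as descriptions without a test.

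**Figure D3:**
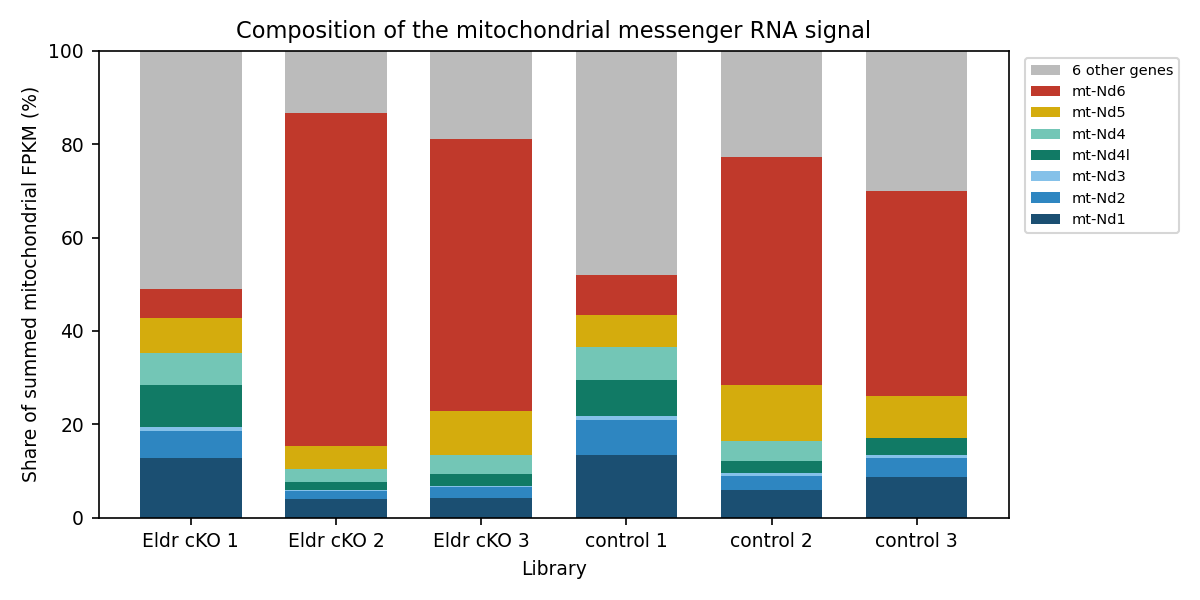
Share of the summed mitochondrial FPKM (percent, bars to 100) taken by each complex I gene and by the 6 other coding genes together, in each Eldr cKO and control library. In library 1 of both genotypes mt-Nd6 took 6.18% and 8.47%, and in the other libraries 43.9% to 71.2%.

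As a share of the summed FPKM of all genes, the 7 members took 21.3%, 29.4% and 27.5% in Eldr cKO 1, 2 and 3, against 35.3%, 54.1% and 28.8% in control 1, 2 and 3. The means were 26.1% ± 4.2 in Eldr cKO and 39.4% ± 13.2 in control (SD, n = 3 each), and the ranges overlapped through control 3. This difference depended on the denominator. Over genes outside the repeat-rich group, the shares were 22.2%, 57.4% and 51.0% in Eldr cKO and 36.5%, 62.1% and 33.2% in control, with means of 43.5% and 43.9%. The 6 members without mt-Nd6 amounted to 0.355, 0.303 and 0.385 times the summed FPKM outside the mitochondrial and repeat-rich genes in Eldr cKO 1, 2 and 3, against 1.02, 1.16 and 0.235 times in control 1, 2 and 3. On this scale control 1 and 2 lay above every Eldr cKO library and control 3 below every one.

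None of the 7 members passed the test between genotypes. Limma, a moderated two-sided test on log2(FPKM + 1) fitted over 9007 genes with Benjamini-Hochberg adjustment, called 0 of 7 members and 0.0% of all tested genes in either direction at an adjusted p of 0.05. Over all tested genes the unadjusted p was under 0.05 for 135 (1.50%), with 1.04% lower and 0.455% higher in Eldr cKO. Among the members it was under 0.05 for mt-Nd1, mt-Nd2 and mt-Nd5, which were lower, and mt-Nd4, which was higher. In this fit the spread of a gene came from the trend over all genes and its own spread had no weight. On each member's own spread, the test in the authors' deposited table gave 0 of 7 members a p under 0.05, against 1.98% of all rows. An exact two-sided permutation test of each member, which cannot go below 0.1 with 3 against 3 libraries, gave p from 0.2 to 1.0.

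The log2 fold changes of FPKM + 1, Eldr cKO minus control, were negative for 6 members and positive for mt-Nd4, with a median of -0.99 against -0.13 over all tested genes. The sign of mt-Nd4 depended on the scale, since its mean FPKM was lower in Eldr cKO (5994 ± 2374) than in control (10479 ± 10293; SD, n = 3 each). For mt-Nd1 it was -1.20 (limma SE 0.51, and 0.77 from its own spread; limma, adjusted p = 1.00), with all 3 Eldr cKO libraries below the control mean. The values of mt-Nd2, mt-Nd3 and mt-Nd5 were -1.28 (own SE 0.82), -1.42 (own SE 0.72) and -0.99 (own SE 0.55), again with 3 of 3 Eldr cKO libraries below the control mean. For mt-Nd4l it was -0.97 (own SE 0.99) with 2 of 3 libraries below that mean. The value of mt-Nd6, -0.47, was smaller than its own SE of 1.37, with 1 of 3 libraries below the control mean. Controls lay below their own mean too, control 2 and 3 for mt-Nd1, mt-Nd2 and mt-Nd4l, and control 3 for mt-Nd3 and mt-Nd5. For mt-Nd6 these were control 1 and 3, so the counts of libraries below the control mean do not separate the genotypes. The groups overlapped for all 7 members, while they did not overlap for 3.94% of tested genes (1.49% higher and 2.45% lower in Eldr cKO). Of the 6 other mitochondrial coding genes all 6 had negative values (median -0.92), and mt-Atp8 was the gene whose groups did not overlap.

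The log2 fold change of mt-Nd4 was 1.69 (limma SE 0.65, own SE 3.12; limma, unadjusted p = 0.00871, adjusted p = 1.00). Without control 3 it turned to -1.39 (limma, adjusted p = 0.999), close to the other members. Without control 1 it was 3.47 and was called higher in Eldr cKO (limma, adjusted p = 0.000344), the only call among 8625 genes tested in that fit (0.0116%). Its adjusted p over 18 alternative fits reached 1.0. That fit kept control 3, at 23.3 FPKM, as 1 of 2 controls. When robust variance estimation let the gene's own spread enter, the SE became 3.12 and the unadjusted p 0.616.

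**Figure D4:**
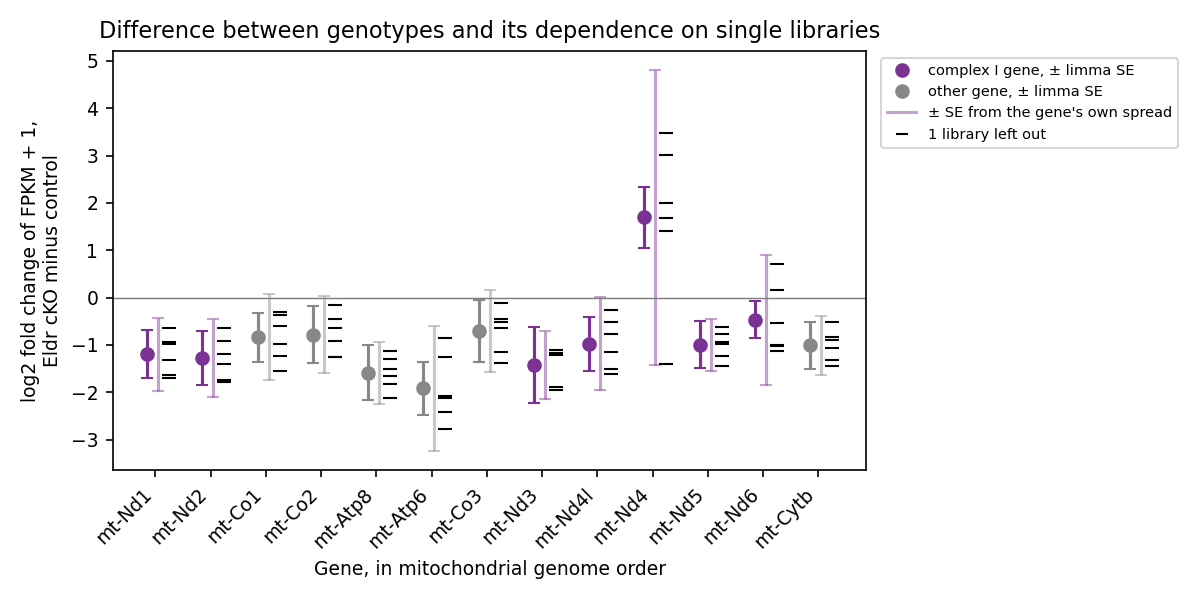
Log2 fold change of FPKM + 1, Eldr cKO minus control, for the 13 mitochondrial coding genes in genome order: point and dark bar, limma value ± SE; pale bar, ± SE from the gene's own 6 values; dashes, the value with 1 library left out. All members but mt-Nd4 lie below 0, mt-Nd6 crosses 0 with 1 library left out, and mt-Nd4 runs from -1.39 to 3.47.

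Nuclear complex I genes showed no such common sign, and none passed. Of 38 listed nuclear subunits 36 had a row and were tested, with 18 higher and 18 lower in Eldr cKO, 0 passing in either direction and a median log2 fold change of -0.07. The unadjusted limma p was under 0.05 for 4 of these 36 as lower and 0 as higher, against 1.04% lower and 0.455% higher over all tested genes. Those 4 were Ndufa1, Ndufa6, Ndufa3 and Ndufv2, each listed at 0 in Eldr cKO 3. Among 7 core subunits, which carry the flavin and the iron-sulphur clusters, 4 were higher and 3 lower (median 0.12). The smallest unadjusted p belonged to Ndufv2, an iron-sulphur subunit, listed at 109, 0 and 0 FPKM in Eldr cKO 1, 2 and 3 against 119, 16.5 and 14.7 FPKM in control 1, 2 and 3. The log2 fold changes of Ndufs8 (-2.01, SE 1.28) and Ndufv1 (1.60, SE 1.26) stood on values listed at 0 in 1 library each. Of 29 tested accessory subunits 14 were higher and 15 lower (median -0.15). Ndufa6, an accessory subunit, was listed at 95.8, 68.5 and 0 FPKM in Eldr cKO and at 121, 44.99 and 267 FPKM in control. The next were Ndufa3 (-2.81, SE 1.34) and Ndufb9 (2.09, SE 1.16), while Ndufa1, with the smallest p of this list, was at -3.22 (SE 1.08) and listed at 0 in Eldr cKO 3. Limma with library quality weights called Ndufa1 lower (6 genes called, 0.0666%, no mitochondrially encoded complex I gene among them). Above 0 in all 6 libraries were 16 of the 36 nuclear subunits and 7 of 7 mitochondrially encoded ones.

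Genes that build complex I or make mitochondrial RNA were barely detected at this depth. Of 17 listed assembly factors 12 were tested, with 2 higher, 10 lower and 0 passing (median -0.26), and 1 was above 0 in all 6 libraries. Ndufaf8, which had the smallest unadjusted p of the list, was listed at 0 in every library but control 3 (18.5 FPKM). Ndufaf1, a factor of the membrane arm intermediate, was listed at 3.47, 0 and 0 FPKM in Eldr cKO and at 19.1, 0 and 5.14 FPKM in control. The assembly factors Ndufaf4 (1.37, SE 1.39) and Ndufaf5 (1.08, SE 1.35) had positive log2 fold changes, Ndufaf4 being listed at 0, 6.50 and 23.1 FPKM in Eldr cKO and at 9.47, 0 and 0 FPKM in control. Of 36 listed genes of mitochondrial RNA synthesis and processing 26 were tested, with 10 higher, 16 lower and 0 passing (median -0.39). Tfam, the transcription factor that packages mitochondrial DNA, was listed at 0 in each Eldr cKO library and at 5.91, 0 and 1.72 FPKM in control, and Pnpt1 and Supv3l1, which degrade mitochondrial RNA, were listed at 0 in each Eldr cKO library and in control 3. On a 1 kb transcript, 1 fragment was worth 5.22, 19.2 and 17.9 FPKM in Eldr cKO 1, 2 and 3, and less on a longer one. The control values of Tfam, Pnpt1 and Supv3l1 lay below that of Eldr cKO 2. In control 1 they lay above that of Eldr cKO 1. Whether the values of 0 reflect depth was not tested.

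The summed FPKM of nuclear complex I subunits was 2722, 1331 and 832 in Eldr cKO 1, 2 and 3, against 3773, 988 and 1560 in control 1, 2 and 3. Without mt-Nd6, the mitochondrially encoded members summed to 19.3, 15.8 and 38.1 times the nuclear sum in Eldr cKO and to 33.9, 74.9 and 18.8 times in control. The groups overlapped in this ratio, and control 2 was its highest library.

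Among 1579 genes outside the mitochondrial genome that were above 0 in all 6 libraries, those most like the mean log2(FPKM + 1) of the 7 members were Wdr20, Acot13, Rtraf, Aktip and Homer1, with Pearson's r over 6 libraries from 0.95 to 0.99. That mean took in the low mt-Nd4 value of control 3 (23.3 FPKM), and Wdr20, Acot13, Rtraf and Homer1 were lowest in control 3. The transcript mt-Nd1 was instead lowest in Eldr cKO 2 (5476 FPKM). Likeness to the members without mt-Nd4 was not computed. Acot13, a mitochondrial acyl-CoA thioesterase, was listed at 79.0, 25.7 and 71.9 FPKM in Eldr cKO 1, 2 and 3 and at 296, 228 and 20.7 FPKM in control 1, 2 and 3. The genes most like mt-Nd4 were Ostc, Cyb5r3, Chpt1, Pln and Lpin1 (r from 0.94 to 0.96), all of which were lowest in control 3. Pln, the phospholamban of heart muscle and one of the heart markers above, was listed at 215, 98.7 and 101 FPKM in Eldr cKO and at 303, 102 and 16.3 FPKM in control. These are the extremes of many correlations over 6 libraries and describe the libraries only.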

How the data were processed

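Per the submitters' processing notes, the authors used cutadapt, HISAT2 2.0.5 and StringTie to obtain the deposited FPKM of each gene in each library. The notes name the human build hg19, whereas the deposited gene IDs are mouse IDs and all 13 mitochondrial rows had the position and strand of GENCODE M21 on GRCm38. In the deposited table the group columns held the mean log2(FPKM + 1), the log2 fold change was their difference, Eldr cKO minus control, and the fold its antilog. The deposited p-value differed by at most 9.7e-13 from an equal-variance test on log2(FPKM + 1), and no source used here says how the q-value was made. An empty row is not reported here.

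The 7 members and all gene lists were chosen with earlier results of these data known. The test was limma 3.58.1 (R 4.3.3) on log2(FPKM + 1) of genes averaging 1 FPKM or more, with an intensity trend, genotype as the single factor and a Benjamini-Hochberg threshold of 0.05. A fold change on this scale understates the change of low genes. Limma estimated infinite prior degrees of freedom, so SE and p came from the trend. No count model was used, since whole fragments were not recovered for all genes. Depth was the most frequent value, within 3%, of the inverse of FPKM times length over genes with 1 annotated transcript. That value was shared by 68 to 145 genes per library and taken as 1 fragment. It is an estimate, and fragment numbers cover counting error only. The limma fit was also run on simulated data with known changes in genes outside the mitochondrial genome. That run does not bear on the members, and its outcome is not given here. Copies were sought with BLAST+ 2.17.0 among GENCODE M21 transcripts (E-value at most 1e-20). Named genes were the 7 members, up to 4 genes per list with the smallest unadjusted p (1 of them is not reported here), and the 5 genes most like the members and most like mt-Nd4. Other settings tried were each library left out, the replicate number as a block (alone or after quantile normalization), a filter at 5 FPKM or none, a pseudocount of 0.1 or 0.5, median centring, quantile normalization, rescaling to genes outside the mitochondrial and repeat-rich groups, robust variance estimation, library quality weights and no intensity trend. Python 3.11.15 was used for tables and figures.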

Additional observations from a re-analysis of the deposited data

How the results depend on the processing

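The log2 fold changes of mt-Nd1, mt-Nd2, mt-Nd3, mt-Nd4l and mt-Nd5 stayed negative and uncalled under all 18 alternatives, and the median over the 7 members ran from -1.61 to -0.47. Quantile normalization brought mt-Nd4l close to 0 (-0.083; limma, adjusted p = 0.996). Median centring put the median over all tested genes at 0.40, against -0.13 as reported, and gave the member median of -0.47. That of mt-Nd6 turned positive with median centring (0.059), with library quality weights (0.386) and without control 2 (0.152) or Eldr cKO 1 (0.718), and ran from -1.12 to 0.72 with 1 library left out. That of mt-Nd4 was -1.394 without control 3 and 3.470 without control 1, the ends of its range with 1 library left out. The other ranges with 1 library left out were -1.69 to -0.63 for mt-Nd1, -1.78 to -0.65 for mt-Nd2, -1.96 to -1.10 for mt-Nd3, -1.61 to -0.27 for mt-Nd4l, -1.44 to -0.62 for mt-Nd5 and -1.61 to -0.65 for the median of the 7. Over all genes, calls numbered 0 to 2 higher and 0 to 2 lower with 1 library left out, and library quality weights gave 2 higher and 4 lower, among them no member. The mitochondrial gene mt-Atp6, outside complex I, was called lower with these weights (-2.39; limma, adjusted p = 0.00915). The difference in the complex I share of mitochondrial FPKM, Eldr cKO minus control, ran from -1.31 to 17.5 percentage points with 1 library left out, and was negative without Eldr cKO 2 (-1.30) or without control 1 (-1.31), against 5.89 as reported. That of the share of all FPKM ran from -18.7 to -5.98 points and was -0.38 points outside the repeat-rich genes. With the replicate number as a block, 0 genes were called and mt-Nd4 was at 1.69 (limma, adjusted p = 0.893). There mt-Nd1 had an SE of 0.198 (limma, unadjusted p = 0.001, adjusted p = 0.875). Unadjusted p was also under 0.05 for mt-Nd2, mt-Nd3 and mt-Nd4l, and for 72 genes higher and 151 lower of 9007. The block after quantile normalization also called 0 genes, with unadjusted p under 0.05 for 101 genes higher and 136 lower. It put mt-Nd6 at -0.736 (limma, unadjusted p = 0.000304, adjusted p = 0.736). Values for mt-Nd1 and mt-Nd4 were -0.788 and 2.864 (limma, unadjusted p = 0.000699 and 0.0251, adjusted p = 0.736 and 0.849). By listed FPKM, mt-Nd1, mt-Nd2, mt-Nd3 and mt-Nd4l were lower in Eldr cKO in every same-numbered pair. By the same values mt-Nd4, mt-Nd5 and mt-Nd6 were higher in pair 3. Same-numbered libraries had deviations from their group means that correlated at 0.28, 0.15 and 0.095. Each library correlated best with its own number, but these values are low, and pairing was not tested. The cause of these shifts was not tested. At the estimated depths, differences in mt-Nd3 and in nuclear complex I genes rest on few fragments in Eldr cKO 2 and 3.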
